A study of Mus musculus with 18 samples.

Results

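The receptors for apelin, sphingosine-1-phosphate (S1P) and adrenomedullin, together with the ligand apelin, were followed in endothelial and other cells of the developing mouse retina. Probe sets were taken by gene symbol, where the array annotation gave that symbol alone, for the 8 genes Aplnr, Apln, S1pr1, S1pr2, S1pr3, Calcrl, Ramp2 and Ramp3. The 8 genes, of 15964 with such a probe set, were read by 17 of the 36701 probe sets on the arrays, of which 9 lay on chip A, 6 on chip B and 2 on chip C. All 8 genes had at least 1 probe set, and 1 further probe set that the annotation shares between Ramp2 and a neighbouring gene was left out. The retinas came from FVB/N mice homozygous for a GFP transgene under the Tie2 promoter, at postnatal day 8, so both populations carried the transgene. Pooled retinas were dissociated with papain, and GFP-positive cells, labelled as endothelial, were separated from GFP-negative cells, the control, by flow cytometry. Tie2 is also expressed by some blood-lineage cells, so GFP marks endothelium without being exclusive to it. The amplified RNA was read on Affymetrix MGU74v2 arrays, a set of 3 chips (A, B and C), and each chip had 3 arrays of either population, 18 in all. Nothing in the labels ties the 3 arrays of a group to separate animals or sorts. The spread behind each p-value is therefore that between arrays and may be technical.

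All 3 systems act through receptors of the G protein-coupled class. Apelin is a secreted peptide that binds the receptor encoded by Aplnr; in sprouting vessels the ligand is known from tip cells, and the receptor from the endothelium of veins and growing capillaries. S1P is a blood-borne lipid, and its receptors on endothelial cells steady junctions and restrain sprouting, with S1pr1 coupled to inhibitory G proteins, and S1pr2 and S1pr3 to several G protein classes. Adrenomedullin signals through Calcrl, which reaches the cell surface only together with a receptor activity-modifying protein; Ramp2 or Ramp3 makes it an adrenomedullin receptor, whereas Ramp1 makes it a receptor for the neuropeptide CGRP.

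The array medians lay between 32.5 and 44.6 intensity units over the 3 chips, and the number of arrays limited the precision. GFP-positive replicate 3 stood apart. Its rank correlations with the other GFP-positive arrays were 0.911 to 0.929 across probe sets, against 0.960 to 0.987 for the other pairs of arrays within a population, and results are therefore also given without it. Of 10 endothelial markers 8 rose in GFP-positive cells, and their summed intensity on chip A was 12836 to 15562 against 1993 to 2964. The brightest of them, the VEGF receptor gene Kdr, was 2235 ± 233 against 2245 ± 503 (mean ± SD, n = 3 arrays each) and did not pass. None of 10 pericyte and smooth muscle markers passed in either direction, with chip A sums of 247 to 340 against 287 to 332. The brightest of them, Rgs5, was 102.8 on GFP-positive replicate 3 and 32.8 to 33.9 on the other GFP-positive arrays. Of 11 microglial and leukocyte markers 2 rose, and their chip A sum was 1465 on GFP-positive replicate 3, 570.1 and 759 on replicates 1 and 2 and 468 to 503 in GFP-negative cells. Csf1r, the brightest of them, was 929.8 on GFP-positive replicate 3 and 37.3 to 41.2 on the other GFP-positive arrays; without Csf1r the sums of GFP-positive replicates 1, 2 and 3 were 533, 718 and 535. Of 6 Müller glia markers 5 fell, led in brightness by Rlbp1 at 31.2 ± 5.90 against 1012 ± 416. Their chip A sum was 195 to 1058 against 1179 to 2138, and the 1058 was that of GFP-positive replicate 3, of which Glul, the member that did not pass, made up 986. Of 4 astrocyte markers 1 fell, the brightest, Pdgfra, at 20.2 ± 3.34 against 418 ± 246. Photoreceptor markers fell for 3 of 6, among them the brightest, Sag, at 136 ± 117 against 704 ± 320. None of 5 erythroid and platelet markers (the brightest was Hba-a1, 109 ± 11.5 against 80.5 ± 8.77) and none of 6 inner retinal neuron markers (the brightest was Thy1, 38.8 ± 2.35 against 34.1 ± 2.05) passed. No marker in these lists was at 0. In sorted bulk cells a difference may come from fewer cells of a type or from less RNA per cell, which cannot be told apart here.

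Among the 17 probe sets, 5 passed an adjusted p under 0.05 with GFP-positive cells higher and 1 with them lower (limma, Benjamini-Hochberg within each chip), against 7.42% higher and 8.86% lower among all probe sets of the 3 chips. The 5 belonged to 3 genes, Aplnr, Apln and Ramp2, and the 1 to S1pr3. By chip, 2 of 9 were higher and none lower on chip A, where 9.09% and 9.25% of all probe sets were, and 1 of 2 was higher and none lower on chip C, where 3.4% and 5.88% were. On chip B 2 of 6 were higher and 1 was lower, where 9.6% and 11.3% of all probe sets were. All GFP-positive arrays lay above all GFP-negative ones for 12 of the 17 probe sets, against 21.3% of all probe sets, and below them for 1, against 16%. The median log2 difference over the 17 was 0.20, and that over all probe sets 0.048. Each log2 difference is the GFP-positive mean less the GFP-negative mean of log2(intensity + 16), and the added 16 shrinks the differences of dim probe sets. Of the 17, 9 had a mean over all 6 arrays below the median probe set of their chip. Detection calls were not used here, so a dim value may be background.

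**Figure D1:**
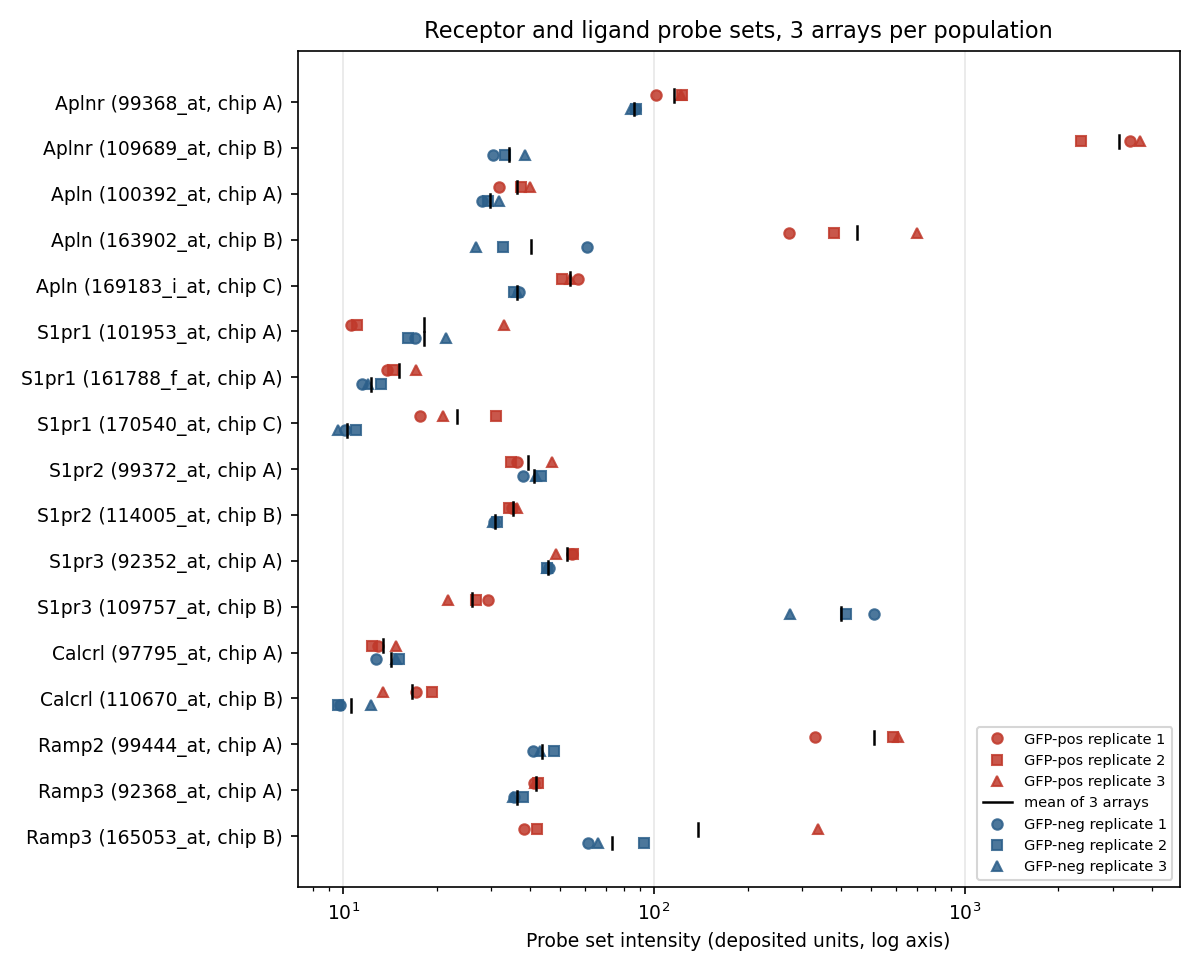
Intensity of each of the 17 probe sets on every array (log axis, deposited intensity units), with GFP-positive arrays in red, GFP-negative arrays in blue, a marker shape per replicate number and a black bar at the mean of 3 arrays. The widest gaps between populations are those of Aplnr, Apln and S1pr3 on chip B and of Ramp2 on chip A, and GFP-positive replicate 3 lies far from its population for Ramp3 on chip B.

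The promoter table of RefSeq (GRCm38.p6) held 5 of the 8 genes, namely Apln, S1pr2, S1pr3, Calcrl and Ramp3. Of these, Apln was higher and S1pr3 lower in GFP-positive cells on chip B, so the 250 bases before the start of each are printed, Apln from chrX:48034854-48035103 (minus strand) and S1pr3 from chr13:51408368-51408617 (plus strand), 5′ to 3′ along the gene. Capitals mark matches on either strand to 3 short motifs: ACGTG, a core of hypoxia response elements, CACCC, a core bound by Krüppel-like factors, and CAGGAAG, an ETS factor core with flanks.
Apln: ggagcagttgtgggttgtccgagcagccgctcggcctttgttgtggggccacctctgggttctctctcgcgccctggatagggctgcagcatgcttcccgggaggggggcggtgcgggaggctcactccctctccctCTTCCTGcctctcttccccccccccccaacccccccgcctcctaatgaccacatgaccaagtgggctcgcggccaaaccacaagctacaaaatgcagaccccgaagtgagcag
S1pr3: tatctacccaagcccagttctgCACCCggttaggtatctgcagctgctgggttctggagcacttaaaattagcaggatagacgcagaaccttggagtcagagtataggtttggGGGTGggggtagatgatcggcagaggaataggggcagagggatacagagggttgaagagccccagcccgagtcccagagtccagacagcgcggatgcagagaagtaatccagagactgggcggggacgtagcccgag
The Apln window held 1 match, to CAGGAAG on the minus strand of the window, 113 to 107 bases before the start, a motif found in 10.8% of the 32851 windows of the same length. The S1pr3 window held 2 matches to CACCC, 228 to 224 and 137 to 133 bases before the start, a motif found in 52.0% of windows. CAGGAAG also matched in the window of Calcrl, and CACCC in those of Calcrl, S1pr2 and Ramp3. ACGTG, found in 16.6% of windows, matched in none of the 5. No match overlapped another, and these matches describe letters, not binding.

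Aplnr, the apelin receptor, had the largest difference of the 8 genes. On chip B (109689_at) it was 3405, 2359.9 and 3651 on the GFP-positive arrays and 30.4, 33.2 and 38.6 on the GFP-negative arrays. Every GFP-positive array was far above every GFP-negative one. This is a log2 difference of 5.96 (SE 0.18, adjusted p = 1.36e-05), and without GFP-positive replicate 3 it was 5.84 (adjusted p = 3.82e-06). The chip A probe set (99368_at) was 101, 123 and 123 in GFP-positive against 86.9, 87.8 and 84.1 in GFP-negative cells. These arrays did not overlap either, but the log2 difference was only 0.36 (SE 0.089, adjusted p = 0.0414). That call ended without any 1 array other than GFP-positive replicate 1, with adjusted p of 0.0550 without GFP-positive replicate 3 and up to 0.146 without GFP-negative replicate 3. It also ended with a pseudocount of 1 (adjusted p = 0.0609), among brighter probe sets only (adjusted p = 0.0671) and with limma-trend and robust eBayes (adjusted p = 0.116). The probe sets of Aplnr thus shared a direction and differed widely in size.

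Apln, which encodes the peptide ligand, was also higher in GFP-positive cells. On chip B (163902_at) the GFP-positive arrays read 272, 380.3 and 701 and the GFP-negative arrays 61.0, 32.6 and 26.7. The populations did not overlap, and GFP-positive replicate 3 was the highest array. The log2 difference was 3.0003 (SE 0.37, adjusted p = 0.00199), and 2.64 without GFP-positive replicate 3 (adjusted p = 0.000451). On chip C (169183_i_at) Apln was 56.9, 50.4 and 53.7 against 36.8, 35.5 and 36.3. The difference of 0.42 (SE 0.066, adjusted p = 0.0146) passed, but the call ended without GFP-positive replicate 1 (adjusted p = 0.0576) or without GFP-negative replicate 1, 2 or 3 (adjusted p = 0.0626, 0.0675 and 0.0581). With the replicate number as a block it also ended (adjusted p = 0.0661), as did that of Aplnr on chip A (adjusted p = 0.103). On chip A (100392_at) Apln was dim in both populations, at 31.8, 37.3 and 40.0 against 28.0, 29.3 and 31.6, and did not pass (0.20, adjusted p = 0.187).

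Of the S1P receptors, S1pr3 differed most, and in the opposite direction to the apelin pair. This receptor is best known from vascular smooth muscle and endothelium. On chip B (109757_at) it was 29.3, 26.7 and 21.7 on the GFP-positive arrays and 509 (replicate 1), 414 (replicate 2) and 275 (replicate 3) on the GFP-negative arrays. The GFP-negative arrays spread widely and all lay far above the GFP-positive ones. The log2 difference was -3.27 (SE 0.22, adjusted p = 0.000155), and -3.20 without GFP-positive replicate 3 (adjusted p = 0.000106). Müller glia markers (5 of 6), photoreceptor markers (3 of 6) and 1 of 4 astrocyte markers, Pdgfra, were likewise lower in GFP-positive cells. The other astrocyte markers Gfap, Pax2 and S100b (0.36, 0.056 and 0.0045) did not pass, nor did pericyte and smooth muscle markers. The part of these cell types in the S1pr3 result was not tested. The chip A probe set of S1pr3 (92352_at) was 54.6, 55.0 and 48.6 against 46.1, 45.4 and 45.2. It lay slightly the other way, with no overlap, and did not pass (0.16, SE 0.069, adjusted p = 0.195).

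S1pr1, the main S1P receptor of endothelium, had 3 probe sets, all dimmer than the median probe set of their chip, and none passed with all arrays. The chip C probe set (170540_at) was 17.7, 31.1 and 20.9 in GFP-positive against 10.2, 11.0 and 9.64 in GFP-negative cells. The populations did not overlap, and the difference of 0.56 (SE 0.13) did not pass (adjusted p = 0.0530). It passed in 6 of 15 alternatives, among them without GFP-positive replicate 3 (0.60, adjusted p = 0.0304), without GFP-positive replicate 1 (0.67, adjusted p = 0.0467) and with a pseudocount of 1 (1.07, adjusted p = 0.0233). On chip A, 101953_at was 10.6, 11.1 and 32.9 against 17.0, 16.1 and 21.4. Here GFP-positive replicates 1 and 2 were below all GFP-negative arrays and replicate 3 above them. The difference was -0.058 (SE 0.25, adjusted p = 0.911) with all arrays and -0.35 (adjusted p = 0.0410) without GFP-positive replicate 3, opposite in sign to the chip C value. The remaining chip A probe set (161788_f_at) was 13.9, 14.5 and 17.2 against 11.5, 13.3 and 12.1 and did not pass (0.14, adjusted p = 0.276). With all arrays no direction was therefore called for S1pr1. Without GFP-positive replicate 3, 101953_at and 170540_at passed with opposite signs, both at intensities that may be background.

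S1pr2, another S1P receptor, was dim on both its probe sets and passed on neither. On chip A (99372_at) it was 36.3, 34.7 and 47.0 against 37.9, 43.2 and 41.8, with overlapping populations and a difference of -0.048 (SE 0.10, adjusted p = 0.813). On chip B (114005_at) it was 35.1, 34.3 and 36.2 against 30.7, 31.4 and 30.3. These arrays did not overlap, but the difference of 0.13 (SE 0.078, adjusted p = 0.287) did not pass.

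Of the adrenomedullin receptor genes, Ramp2 passed and Calcrl and Ramp3 did not with all arrays. Ramp2, whose loss in mice is known to impair vessels, was 329.6, 589 and 610.5 on the GFP-positive arrays of chip A (99444_at) and 40.8, 47.7 and 42.9 on the GFP-negative arrays. All GFP-positive arrays were far above the GFP-negative ones, with replicate 1 the lowest. The log2 difference was 3.09 (SE 0.24, adjusted p = 0.000627), and 2.94 without GFP-positive replicate 3 (adjusted p = 0.00102). Ramp2 had no other probe set with its symbol alone, so this value had no check by a probe set of its own.

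Calcrl, the receptor chain, was read at low intensity by both its probe sets. On chip B (110670_at) it was 17.1, 19.3 and 13.4 against 9.79, 9.60 and 12.3, without overlap. The difference of 0.29 (SE 0.10, adjusted p = 0.0962) did not pass with all arrays, but did in 3 of 15 alternatives, without GFP-positive replicate 3 (0.37, adjusted p = 0.0486), with limma-trend and robust eBayes (adjusted p = 0.0372) and with array weights (0.39, adjusted p = 0.0108). On chip A (97795_at) Calcrl was 13.0, 12.4 and 14.8 against 12.8, 15.1 and 14.8, with overlapping populations (-0.040, SE 0.072, adjusted p = 0.768). Both probe sets lay below the median of their chip.

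Ramp3, the alternative partner, did not pass on either probe set with all arrays. On chip A (92368_at) it was 41.1, 42.3 and 41.4 against 35.4, 38.0 and 35.2, without overlap, and the difference was 0.14 (SE 0.063, adjusted p = 0.190). On chip B (165053_at) GFP-positive replicates 1 and 2 read 38.1 and 41.9, GFP-positive replicate 3 read 337, and the GFP-negative arrays read 61.4, 92.8 and 66.1. The sign of the mean difference depended on that array. With all arrays it was 0.23 (SE 0.70, adjusted p = 0.844), and without GFP-positive replicate 3 it was -0.66 (SE 0.16, adjusted p = 0.0244). Markers of several cell types were also highest of the GFP-positive arrays on that array, among them Csf1r (929.8), Glul (986) and Rgs5 (102.8). Of the 11 microglial and leukocyte markers 8 were highest there, whereas C1qa (34.0), C1qb (53.2) and Fcer1g (115.8) were lowest. Without Csf1r, their chip A sums on GFP-positive replicates 1, 2 and 3 were 533, 718 and 535. The share of all probe sets highest on that array was not computed. The part of any cell type in the Ramp3 value was not tested.

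**Figure D2:**
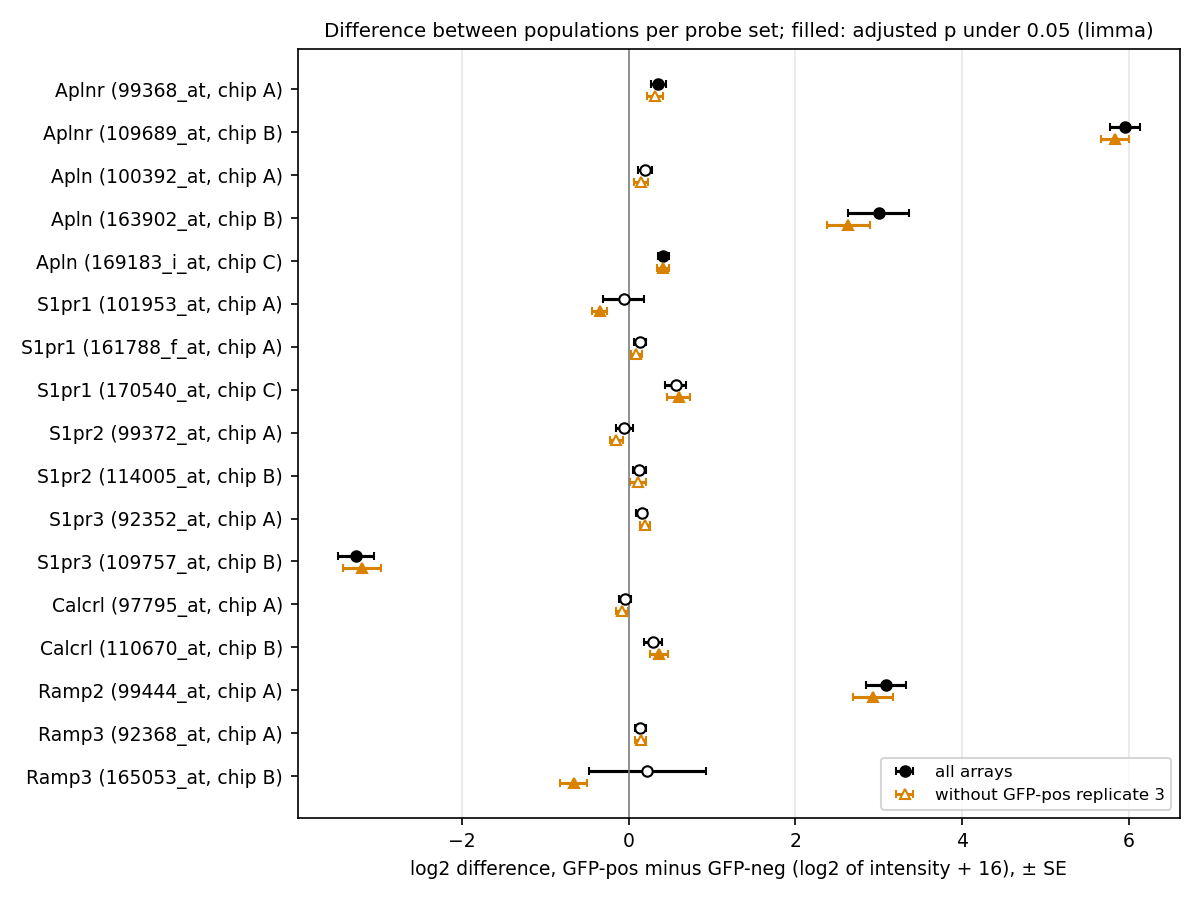
Log2 difference (GFP-positive minus GFP-negative, log2 of intensity plus 16) with its standard error for each of the 17 probe sets, with all arrays (black circles) and without GFP-positive replicate 3 (orange triangles); filled symbols passed an adjusted p under 0.05. The values for Aplnr (5.96 and 5.84) and S1pr3 (-3.27 and -3.20) on chip B hardly move, whereas Ramp3 on chip B turns from 0.23 to -0.66.

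Without GFP-positive replicate 3, 6 of the 17 probe sets were higher and 3 lower. Calls rose chip-wide as well, to 1738 higher (main 1129) and 1731 lower (1149) of 12422 on chip A. Chip B then had 1473 higher (1191) and 1657 lower (1405) of 12411, and chip C 1559 (403) and 1417 (698) of 11868. Among the 17, omission of GFP-positive replicate 3 added S1pr1 on chip C and Calcrl on chip B, higher. It also added S1pr1 (101953_at) on chip A and Ramp3 on chip B, lower, and ended the call of Aplnr on chip A. Without GFP-negative replicate 1, 2 or 3, the higher calls among the 17 numbered 3 each time, and chip-wide higher counts also fell on each chip. The calls of Aplnr, Apln and S1pr3 on chip B and of Ramp2 on chip A held in all 16 alternatives run.

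Other genes of the same 3 systems were taken from a list of 48, of which 42 were measured, each by its brightest probe set on the first chip that held it. Of the 42 genes 10 rose and 3 fell, against 9.43% higher and 11.3% lower among the 15964 genes measured in the same way. Their median log2 difference was 0.030. Of 40 further probe sets of these genes 3 were higher and 5 lower, against 7.42% higher and 8.86% lower among all probe sets of the 3 chips. The counts thus depend on the probe set taken. With GFP-negative replicate 1 omitted 6 genes rose, and with replicate 2 or 3 omitted 5 did.

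Among 4 genes of apelin ligands and peptide processing, 1 passed. Furin, a convertase that cleaves many precursor proteins, was 227, 329 and 148 against 75.6, 70.7 and 101.7. It rose by 1.29 (adjusted p = 0.0276), a call that ended without GFP-positive replicate 1 (adjusted p = 0.0658) or without any 1 GFP-negative array (adjusted p up to 0.103), and with the replicate number as a block (adjusted p = 0.0833). Mme, the peptidase neprilysin, did not pass on its chosen probe set (-0.039). A pair on chip B, looked up after the values were seen, was higher (0.67 and 0.46, adjusted p = 0.00375 and 0.0297). That pair was dimmer than the median probe set of the chip (means over all arrays 21.9 and 9.90). The other chip B probe sets of Mme did not pass (0.22 and 0.12, adjusted p = 0.181 and 0.829). The brightest gene that did not pass was Pcsk5, another convertase, at -0.43 (adjusted p = 0.312).

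Enzymes that make and break down S1P had calls in both directions, 2 of 11 genes rising and 2 falling on the chosen probe sets. Sphk1, a kinase that makes S1P, was 20.5, 19.6 and 18.0 against 97.5, 56.9 and 53.1, and fell by 1.23 on the log2 scale (adjusted p = 0.00895). Its other probe set, on chip B, did not pass (-0.092). Sgpp1, a phosphatase that removes S1P, differed by -0.69 (adjusted p = 0.0428). That call ended without GFP-positive replicate 2 and without GFP-negative replicate 1 or 3 (adjusted p up to 0.151), with the replicate block (adjusted p = 0.0745) and with a pseudocount of 64 (adjusted p = 0.0537), while its chip C probe set was also lower (-1.10, adjusted p = 0.0243) and its chip B probe set did not pass (0.13). The lipid phosphate phosphatases Plpp1 and Plpp2, which dephosphorylate S1P and related lipids outside the cell, rose by 1.05 (adjusted p = 0.0308) and 0.81 (adjusted p = 0.00303). The Plpp1 call ended without GFP-positive replicate 2 or any 1 GFP-negative array (adjusted p up to 0.104) and with a pseudocount of 64 (adjusted p = 0.0615), and its other probe set did not pass (0.11). Plpp3, another phosphatase of this family, did not pass on its chosen probe set (-0.19). Another on chip C, looked up after the values were seen, was lower (-1.32, adjusted p = 0.0356), while those on chip B did not pass (-0.41 and -0.080, adjusted p = 0.376 and 0.568). The brightest that did not pass was Asah1, acid ceramidase, at -0.41 (adjusted p = 0.282).

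Receptors for lysophosphatidic acid, a lipid close to S1P, held 2 of the 3 largest differences among the probe sets chosen for the list. Of 7 further lipid receptors 2 rose and 1 fell. Lpar4 was 1728, 1287 and 1168 against 332, 258 and 240.04, with no overlap, and rose by 2.26 (SE 0.18, adjusted p = 0.000342). Lpar6 was 1217, 793 and 644 against 225, 216 and 223, and rose by 1.87 (SE 0.22, adjusted p = 0.00166). Other probe sets of Lpar4 on chip C (1.58, adjusted p = 0.0777) and of Lpar6 on chip B (0.44, adjusted p = 0.0823) did not pass. Lpar1 fell by 0.52 on the log2 scale (adjusted p = 0.00842), from 39.7 ± 2.85 in GFP-negative to 22.8 ± 2.62 in GFP-positive cells, and its dim chip C probe set did not pass (-0.10). Lpar2, the brightest that did not pass, was 81.7, 64.8 and 1386 against 217, 306 and 151, so GFP-positive replicate 3 alone lay above the GFP-negative arrays. Its difference was -0.060 (adjusted p = 0.974) with all arrays and -1.39 (adjusted p = 0.00769) without that array. S1pr4 (0.048) and S1pr5 (-0.032), the other S1P receptors, did not pass.

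Of 7 genes of the adrenomedullin and CGRP group, 1 rose. Adm, which encodes adrenomedullin, was 40.0, 70.1 and 63.97 against 22.4, 24.8 and 22.5. It rose by 0.89 (SE 0.17, adjusted p = 0.0166) with no overlap, a call that ended without any 1 GFP-negative array (adjusted p = 0.0678, 0.0558 and 0.0710), and its chip C probe set did not pass (0.29, adjusted p = 0.0713). Ramp1, the CGRP receptor partner, did not pass (0.0086), nor did the calcitonin receptor gene Calcr (-0.010). The brightest that did not pass was Crcp, at 0.31 (adjusted p = 0.336), which passed without GFP-positive replicate 3 (0.50, adjusted p = 0.0249).

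Of 13 G proteins, arrestins and receptor kinases 4 rose and none fell on the chosen probe sets, but other probe sets of Grk3 and Gnaq were lower. Looked up after the values were seen, Grk3 on chip C was 29.5, 32.8 and 35.7 against 265, 233 and 202 (-2.35, SE 0.11, adjusted p = 0.000202), and Gnaq on chip B differed by -0.53 (adjusted p = 0.0208) and -0.91 (adjusted p = 0.0173). The chosen probe sets of Grk3 (0.096) and Gnaq (0.0015) did not pass. Gnai2, an inhibitory G protein alpha subunit, was 3118, 3057 and 2676 against 757, 747 and 750.1, and rose by 1.95 (SE 0.082, adjusted p = 7.31e-05). Its other chip A probe sets did not pass (0.66 and 0.92). Gnas, the stimulatory alpha subunit, rose by 0.86 (adjusted p = 0.0218), Arrb1, a beta-arrestin that uncouples activated receptors, by 0.74 (adjusted p = 0.00655) and the receptor kinase Grk5 by 0.37 (adjusted p = 0.0268). Of the other probe sets of these genes, that of Grk5 on chip B was also higher (0.46, adjusted p = 0.0427), while that of Arrb1 (-0.029) and the 4 of Gnas (-0.10, 0.14, 0.17 and -0.022) did not pass. The Gnas call ended under quantile normalization (adjusted p = 0.0810) and without GFP-positive replicate 1 or 2 or GFP-negative replicate 2 or 3 (adjusted p up to 0.0854). The Grk5 call ended without GFP-positive replicate 2 or any 1 GFP-negative array (adjusted p up to 0.106) and with the replicate block (adjusted p = 0.0609). Gnai3, the brightest that did not pass, differed by -0.79 (SE 0.35, adjusted p = 0.194).

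**Figure D3:**
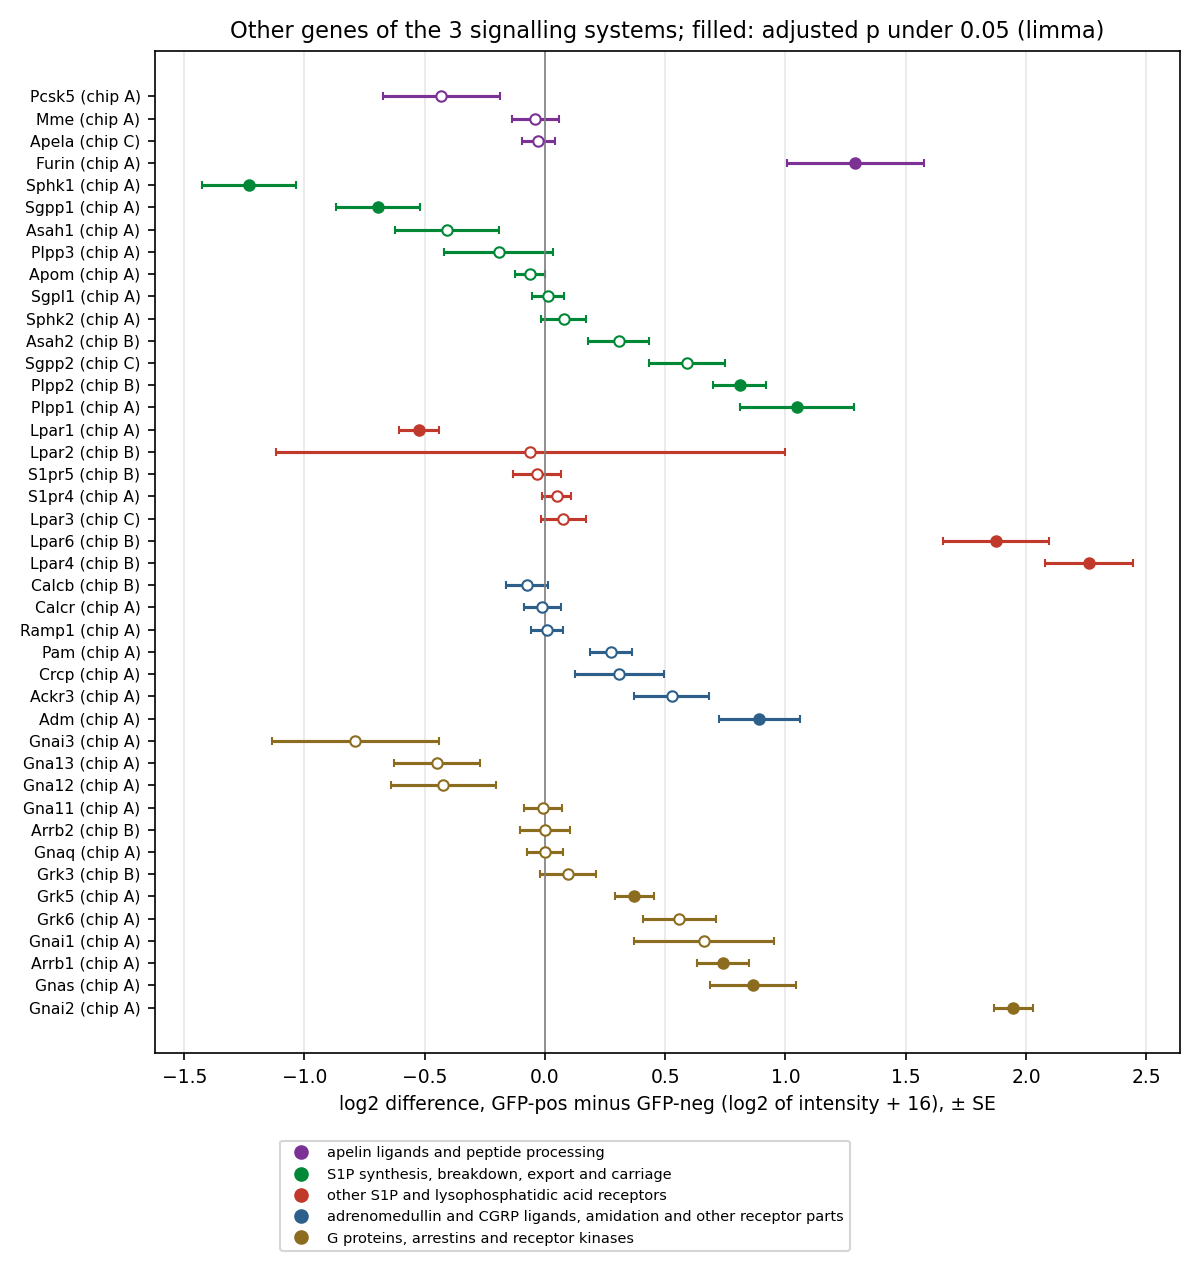
Log2 difference (GFP-positive minus GFP-negative, log2 of intensity plus 16) with its standard error for the 42 measured genes of the list, 1 probe set each, coloured by role; filled symbols passed an adjusted p under 0.05. Among these chosen probe sets Lpar4 (2.26), Gnai2 (1.95) and Lpar6 (1.87) lie farthest to the right and Sphk1 (-1.23) farthest to the left, and the wide bar of Lpar2 contains 0.

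For each gene with a called probe set, the probe sets of the same chip with the most similar profile were found over the 6 arrays, by the root mean square distance of log2 values centred on each probe set's mean. Nearest to Aplnr on chip B were Piezo1, a mechanosensitive channel, at a distance of 0.43, Cd93, an endothelial glycoprotein, at 0.47 and Mmrn2, an endothelial matrix protein, at 0.57. Their own log2 differences were 5.20, 5.20 and 4.88. Nearest to Apln on chip B were Enpp3 at 0.26, Mfsd2a, a lipid transporter of barrier endothelium, at 0.33 and the adhesion receptor Adgrf5 at 0.36, with log2 differences of 2.75, 3.02 and 3.04. Nearest to Ramp2 on chip A were the amino acid transporter Slc7a7 at 0.18, the collagen chain Col4a2 at 0.21 and the junctional protein F11r at 0.22, with log2 differences of 2.93, 3.49 and 2.72. Nearest to S1pr3 on chip B were Acsl3, a fatty acid activating enzyme, at 0.11, Dapl1 at 0.12 and Clip3 at 0.13, with log2 differences of -3.29, -3.46 and -3.20. The distances describe 6 arrays of 2 populations, and most of each profile is the difference between the populations.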

How the data were processed

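The deposited values were probe set intensities on a linear scale, 1 table per chip. Per the labels' protocols, RNA was amplified, labelled with biotin and hybridised in 1 colour. The authors' probe summary, background correction and normalization of these intensities are not stated in the sources used here, and any of them could change a difference. Array medians within a chip were nearly equal, so the scaling was kept. Groups came from the sample titles. Each chip was fitted alone over all its probe sets with limma 3.58.1 in R 4.3.3 (lmFit and eBayes, two-sided) on log2(intensity + 16), without a block. P-values were adjusted by Benjamini-Hochberg per chip and called under 0.05. The script was tested on simulated data.

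Gene symbols came from the array annotation, and a probe set with several symbols named no gene. For the list of 48, 1 probe set measured each gene. The text names every probe set of the 8 genes, every list gene that passed, the brightest that did not pass per role, the brightest gene per marker list and the 3 nearest profiles. The genes and lists were chosen with earlier results of these data known. Other settings tried were pseudocounts of 1 and 64, quantile normalization, centring of arrays on their median, a limit to brighter or to unsuffixed probe sets, limma-trend with robust eBayes, array weights, a replicate block, joint adjustment of the 3 chips and omission of each array. Figures were drawn with matplotlib 3.10.9.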

Additional observations from a re-analysis of the deposited data

How the results depend on the processing

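Over the 17 probe sets, 261 values were recomputed under 16 alternatives, and 230 kept their direction and side of the threshold, 11 newly passed, 14 no longer passed and 6 changed sign; for the 18 named list genes these were 243, 3, 28 and 4 of 278. The sign changes were those of S1pr1 (101953_at), to 0.092, 0.079 and 0.0086 without GFP-positive replicate 1 or 2 or GFP-negative replicate 3 (-0.35 to 0.092 with each array omitted), of S1pr2 on chip A, to 0.012 without GFP-positive replicate 2 (-0.15 to 0.012), of Ramp3 on chip B, to -0.59 with array weights and -0.66 without GFP-positive replicate 3 (-0.66 to 0.69), and of Lpar2, to 0.094 with a pseudocount of 64 and to 0.53, 0.67 and 0.17 without GFP-positive replicate 1 or 2 or GFP-negative replicate 2 (-1.39 to 0.67). With array weights 8 of the 17 probe sets were higher, and chip-wide counts were 2155 higher (main 1129) and 1842 lower (1149) on chip A, 2299 higher (1191) on chip B and 2320 higher (403) and 1604 lower (698) on chip C. With the replicate block 3 of the 17 were higher, and chip C had 187 higher and 454 lower. Without shared-transcript suffixes, 5 list genes were higher, from fewer tested, and chip C had 239 higher and 414 lower. The called probe sets of Gnai2, Gnas, Arrb1, Lpar6 and Plpp1 carry such a suffix and were left out there. Among brighter probe sets 1 list gene was lower, also from fewer tested, since Sphk1 and Lpar1 were too dim to be kept. With 1 array left out, the 17 had 3 to 6 higher and 1 to 3 lower, the list 5 to 14 and 2 to 4, chip A 638 to 1738 and 674 to 1731, chip B 657 to 1473 and 995 to 1657, and chip C 141 to 1559 and 411 to 1417. Where not given above, the cause was not tested. Arrays with the same number shared deviations above 0.1 in 3 of 9 pairs (r = -0.37 to 0.29), and 2 of 9 GFP-positive arrays correlated best with their own number, so the numbers were not taken to pair the samples. On chips A, B and C, GFP-positive replicate 3 correlated best with GFP-negative replicate 2 (r = 0.38, 0.41 and 0.45). GFP-positive replicate 2 did so with GFP-negative replicate 3 (r = 0.17, 0.19 and 0.30). Whether arrays under different numbers share an origin was not tested. The probe sets of S1pr1, S1pr2 and Calcrl all lay below their chip's median, where intensity may be background. So did the chosen, called probe sets of Sphk1, Lpar1, Adm and Grk5 on chip A.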
